A study of Homo sapiens with 18 samples.

Results

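The 10 immediate early transcription factor genes FOS, FOSB, FOSL1, FOSL2, JUN, JUNB, JUND, EGR1, EGR2 and EGR3 were taken from the count table by their symbols. The table listed 28277 genes, 14938 passed a filter on low counts, and all 10 factors were among them. RNA-seq was made of OVCAR3, an established line of high-grade serous ovarian cancer, in cells that all expressed dCas9-KRAB, an inactive Cas9 fused to a repressor domain for CRISPR interference. The sgCtl cells carried a guide to the Gal4 promoter, which human cells lack, while sgXIST7 and sgXIST9 cells carried guides to different sites of the promoter of XIST, the RNA of X chromosome inactivation. Each of these 3 lines grew either in normoxia or under hypoxia (1% oxygen for 24 h), with 3 replicates in each of the 6 groups and 18 libraries in all.

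The cells were clonal and the sgXIST clones had been selected for loss of XIST, so that knockdown (KD), guide and clone cannot be told apart in any comparison with sgCtl. The replicates were called biological, with no statement of separate clones or culture days, and p-values measure only the spread between these libraries. Guide RNA and dCas9-KRAB were delivered by lentivirus in every group, and the medium held serum, which is itself an inducer of immediate early genes.

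FOS proteins bind DNA as dimers with JUN proteins, JUN proteins also pair with each other, and these dimers form the factor AP-1, which recognizes the palindrome TGANTCA. EGR proteins are zinc finger factors that bind GC-rich sites and induce their own corepressors. Immediate early genes are transcribed soon after serum, growth factors or stress, without new protein synthesis, through MAP kinases acting on factors already bound at their promoters, and many of their mRNAs are short-lived. Hypoxia was sampled at 24 h only, so its early hours, when these genes are known to peak, were not measured. A level sustained over the 24 h cannot be told from a rise shortly before harvest.

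Total counts ran from 11794375 to 24906936 per library. XIST was counted 1589 to 11209 times per sgCtl library, at most 5 times in sgXIST7 and 357 to 1009 times in sgXIST9, so that the KD was less complete in sgXIST9. The epithelial genes EPCAM (1787 to 5594 counts) and KRT18 (1461 to 5542) were expressed in every library. Several genes used to recognize OVCAR3 were nearly absent: CLDN3 had 0 counts, CDH1 at most 2, KRT7 at most 3, MUC16 at most 4 and WT1 at most 14. PAX8 was low, at 18 to 131 counts. Of the fibroblast, endothelial and immune list, COL3A1 was abundant (5639 to 24338 counts) in every group, and COL1A2 averaged 0.27 CPM (counts scaled to library size) in sgCtl in normoxia against 96.7 in sgXIST7 and 49.2 in sgXIST9. Replicate 3 of the hypoxia libraries stood apart for several factors. Where leaving it out changed a call or a direction, values or counts of calls without it are given in many cases.

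The 250 bases before the start of transcription are shown for 5 of the factors whose levels differed most or whose windows hold the recognized sites of this gene class, as RefSeq sequences of build GRCh38.p14, 5′ to 3′. Of the 10 factors, 8 had an entry. Capitals mark, on either strand, the cyclic AMP response half-site TGACGT, the variant AP-1 site TGACATCA, the CArG box bound by serum response factor, and the EGR site GCGNGGGCG.
FOS (chr14:75278578-75278827, plus strand): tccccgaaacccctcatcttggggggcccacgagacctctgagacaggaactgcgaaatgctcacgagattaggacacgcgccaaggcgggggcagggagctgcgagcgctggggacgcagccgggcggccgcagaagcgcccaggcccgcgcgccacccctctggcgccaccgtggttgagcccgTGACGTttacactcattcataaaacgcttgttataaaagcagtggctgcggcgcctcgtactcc
FOSL2 (chr2:28392608-28392857, plus strand): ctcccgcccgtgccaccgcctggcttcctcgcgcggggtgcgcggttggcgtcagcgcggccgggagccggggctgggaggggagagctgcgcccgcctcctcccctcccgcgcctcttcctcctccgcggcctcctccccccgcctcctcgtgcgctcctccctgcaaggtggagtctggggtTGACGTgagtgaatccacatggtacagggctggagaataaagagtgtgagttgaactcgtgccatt
JUN (chr1:58784048-58784297, minus strand): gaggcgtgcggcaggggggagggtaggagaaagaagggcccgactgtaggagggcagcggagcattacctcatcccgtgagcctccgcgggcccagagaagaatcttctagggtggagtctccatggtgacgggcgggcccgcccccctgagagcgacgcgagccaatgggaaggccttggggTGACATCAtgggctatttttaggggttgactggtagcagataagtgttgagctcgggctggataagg
EGR1 (chr5:138465229-138465478, plus strand): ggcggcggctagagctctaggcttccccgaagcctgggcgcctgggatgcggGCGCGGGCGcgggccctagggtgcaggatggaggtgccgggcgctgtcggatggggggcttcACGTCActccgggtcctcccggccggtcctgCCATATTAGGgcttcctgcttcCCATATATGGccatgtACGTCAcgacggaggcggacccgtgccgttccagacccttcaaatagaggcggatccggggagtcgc
EGR2 (chr10:62816367-62816616, minus strand): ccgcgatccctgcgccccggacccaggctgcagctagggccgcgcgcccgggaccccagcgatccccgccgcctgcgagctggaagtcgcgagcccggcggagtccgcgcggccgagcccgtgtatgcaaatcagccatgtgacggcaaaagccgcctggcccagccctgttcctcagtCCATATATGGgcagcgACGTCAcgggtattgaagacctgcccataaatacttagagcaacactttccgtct

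The half-site TGACGT lay at base -64 of FOS (gene at chr14:75278828-75282230 of hg38), -66 of FOSL2 (chr2:28392858-28417317), -60 of FOSB, and at 2 places in EGR1 and 3 in JUND, while 7.1% of 35116 promoter windows of this length held it. In JUND 2 of the 3 matches are the overlapping strands of a full site TGACGTCA at -200, found in 1.65% of windows. The window of JUN (chr1:58780791-58784047) held TGACATCA at -67 (2.37% of windows). EGR1 (chr5:138465479-138469303) had 2 CArG boxes, at -105 and -83, and 1 GCGNGGGCG at -198, against 1.16% and 8.41% of windows. EGR2 (chr10:62811996-62819167) has 3 annotated starts, and only the one shown, which lies within an intron of the longer transcripts, held a CArG box at -71 and TGACGT at -55. The core of the hypoxia response element, ACGTG, occurred in the windows of FOSL2, where it overlaps TGACGT, of EGR1, and of another EGR2 start, against 18.5% of all windows. JUNB held none of the motifs searched, and neither TGANTCA (6.57% of windows) nor ACGTG was found for FOS or JUN. These matches describe the letters of the window and not bound sites. Bases outside the window and other motifs were not searched. A gene without a match here, such as FOS for the CArG box, may hold one elsewhere.

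JUN, JUNB, JUND and FOS rose in hypoxia in all 3 lines. The test was edgeR's quasi-likelihood test across all genes with Benjamini-Hochberg adjustment, and a gene was called at an adjusted p under 0.01 and a fold above 2. In sgCtl 7 of 10 factors were called, all higher, where 19.7% of all genes tested were called and 11.3% were higher. In sgXIST7 8 were called, all higher (background 27.3%, 15.1% higher), and in sgXIST9 6 were higher and 1 was lower (background 23.3%, 14.7% higher and 8.58% lower). The median log2 fold change of the 10 factors was 2.23 in sgCtl, 2.91 in sgXIST7 and 1.80 in sgXIST9, and that of all genes tested was 0.02, 0.01 and 0.09. Libraries of the oxygen groups did not overlap for 54.9% of all genes tested in sgCtl, 63.9% in sgXIST7 and 65.9% in sgXIST9. Between lines at the same oxygen level that share was 29.7% to 53.9%, so a lack of overlap is common. Bulk RNA cannot tell a change in the share of cells that express a gene from a change per cell.

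**Figure D1:**
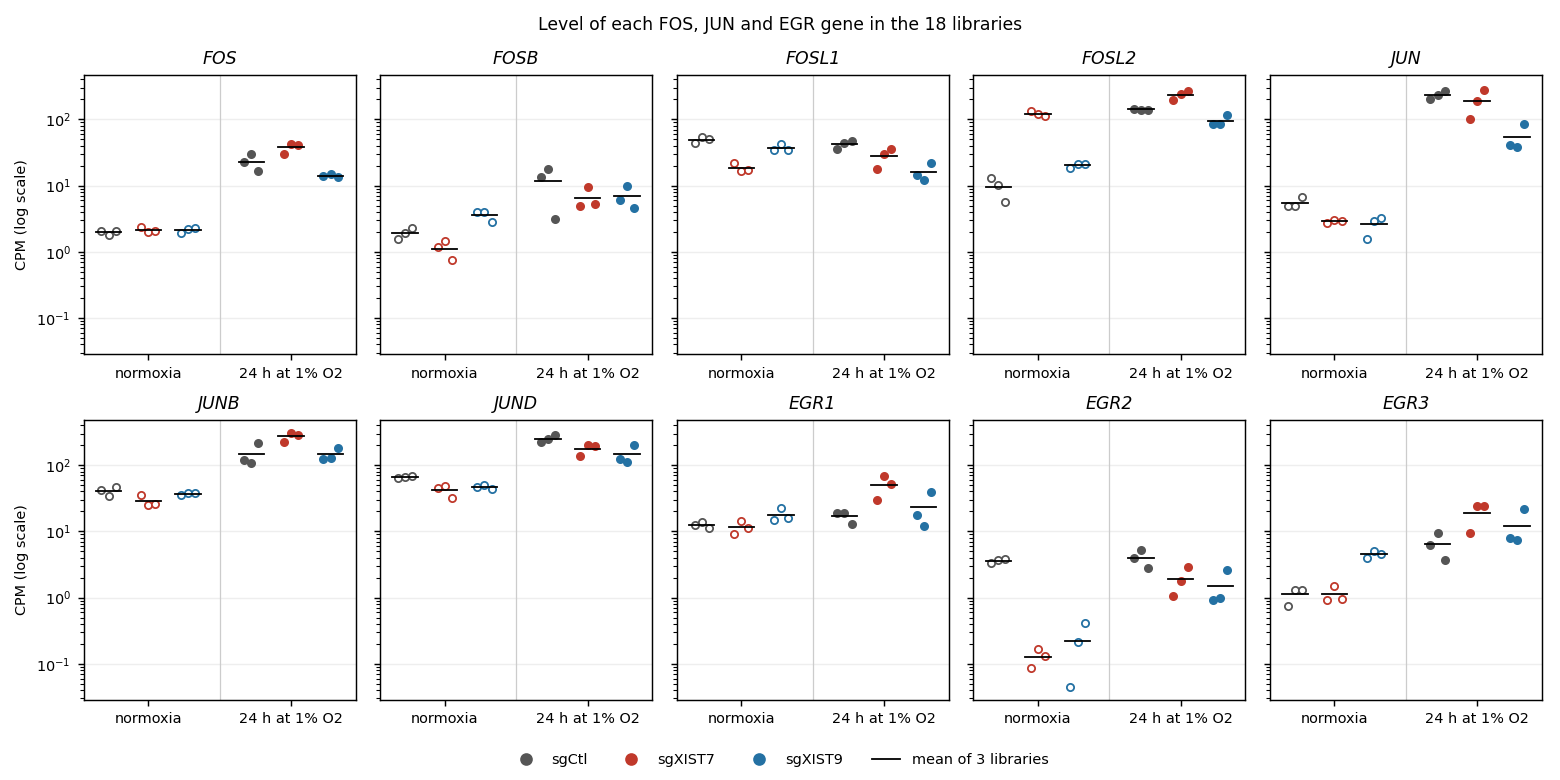
Level of the 10 factors in CPM (log axis) in each of the 18 libraries, open points for normoxia and filled points for 24 h at 1% oxygen, with lines at the mean of 3 libraries. JUN and FOS separated by oxygen in every line, FOSL2 in sgXIST7 was already at 110 to 133 CPM in normoxia, and EGR2 in both KD lines lay below 0.41 CPM in normoxia.

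JUN, a strong transactivator among the AP-1 subunits, had the largest fold of the 10 factors in every line. Its level in normoxia was 4.96, 4.87 and 6.77 CPM in the replicates of sgCtl, 2.77, 2.999 and 2.92 in sgXIST7, and 1.56, 2.92 and 3.27 in sgXIST9. In hypoxia it was 199, 230 and 270 CPM in sgCtl, 101, 187 and 274 in sgXIST7, and 40.7, 37.8 and 86.3 in sgXIST9. The oxygen groups were far apart in every line, while the hypoxia libraries of sgCtl and sgXIST7 overlapped and those of sgXIST9 all lay below both. The log2 fold change was 5.38 ± 0.40 (SE, n = 3 against 3, adjusted p = 2.10e-08) in sgCtl, 6.02 ± 0.41 (4.50e-09) in sgXIST7 and 4.43 ± 0.40 (1.16e-07) in sgXIST9.

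JUNB, which is often a weaker activator than JUN and can oppose it, was measured in normoxia at 42.0, 34.3 and 46.0 CPM in sgCtl, 34.9, 25.0 and 26.1 in sgXIST7, and 34.9, 38.4 and 38.0 in sgXIST9. Hypoxia libraries held 120, 108 and 219 CPM in sgCtl, 225, 305 and 289 in sgXIST7, and 125, 129 and 182 in sgXIST9. No hypoxia library overlapped the normoxia libraries of its line, and replicate 3 was the highest in sgCtl and in sgXIST9. JUNB rose 3.65-fold in sgCtl (adjusted p = 5.86e-06), 9.52-fold in sgXIST7 (1.12e-08) and 3.93-fold in sgXIST9 (2.37e-06). JUND, the subunit present in most resting cells, was already at 63.3 to 69.2 CPM in sgCtl, 32.2 to 48.5 in sgXIST7 and 43.6 to 50.7 in sgXIST9 in normoxia. In hypoxia it reached 222, 250 and 285 CPM in sgCtl, 136, 203 and 192 in sgXIST7, and 122, 112 and 201 in sgXIST9. The change of JUND was the most even of the 10, with log2 fold changes of 1.93 ± 0.21, 2.08 ± 0.21 and 1.63 ± 0.21 (SE, adjusted p = 1.11e-06, 2.77e-07 and 4.78e-06).

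FOS, the prototype immediate early gene, was near 2 CPM in normoxia in each line: 2.08, 1.78 and 2.07 in sgCtl, 2.38, 1.999 and 2.09 in sgXIST7, and 1.92, 2.18 and 2.28 in sgXIST9. After 24 h of hypoxia it was 22.9, 29.7 and 16.4 CPM in sgCtl, 29.9, 43.1 and 41.2 in sgXIST7, and 13.7, 14.7 and 13.4 in sgXIST9. The 3 normoxia groups overlapped, whereas the hypoxia groups fell in the order sgXIST7, sgCtl, sgXIST9 without overlap. FOS rose 11.6-fold in sgCtl (log2 3.54 ± 0.22, SE, adjusted p = 2.54e-09), 17.6-fold in sgXIST7 (2.65e-10) and 6.58-fold in sgXIST9 (1.99e-08).

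FOSB, whose product resembles FOS, rose 6.06-fold in sgCtl (adjusted p = 3.17e-04) and 5.91-fold in sgXIST7 (3.27e-04). In sgCtl it went from 1.54, 1.93 and 2.30 CPM to 13.7, 18.01 and 3.10, so that replicate 3 barely exceeded normoxia. In sgXIST7 it went from 1.17, 1.44 and 0.741 to 4.87, 9.38 and 5.35 CPM. The groups of both lines did not overlap. In sgXIST9 the levels were 3.93, 4.04 and 2.86 CPM in normoxia and 6.11, 9.89 and 4.61 in hypoxia, a log2 difference of 0.93 (adjusted p = 0.0929), which became 1.15 (0.00272) without replicate 3 of each hypoxia group.

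FOSL2, a FOS relative that lacks the strong activation domain of FOS and persists longer, rose in sgCtl and sgXIST9. It went from 13.2, 10.1 and 5.68 CPM to 143, 140 and 140 in sgCtl, a 14.6-fold rise (log2 3.87 ± 0.23, SE, adjusted p = 1.39e-09). In sgXIST9 it went from 18.1, 21.2 and 21.2 to 83.9, 86.4 and 116 CPM, 4.73-fold (1.62e-07). The sgXIST7 libraries differed, since they held 133, 119 and 110 CPM before hypoxia and 199, 242 and 268 after it. That log2 difference of 0.97 ± 0.20 had an adjusted p of 4.60e-04 and missed the fold limit of the call. It passed that limit without replicate 1 of sgXIST7 in normoxia (1.04) or in hypoxia (1.09).

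FOSL1, which also lacks that domain and is known as a target of AP-1 itself, was the only one of the 10 called lower in hypoxia in a line. In sgXIST9 it fell by 1.20 on the log2 scale (SE 0.23, adjusted p = 3.49e-04), from 34.9, 42.1 and 34.9 CPM to 14.4, 12.3 and 22.2. In sgCtl 43.3, 54.7 and 49.7 CPM stood against 35.6, 43.8 and 47.4, and these overlapped. In sgXIST7 the libraries also overlapped, with 21.7, 16.8 and 17.4 CPM in normoxia and 17.6, 30.4 and 35.5 in hypoxia (log2 0.57, adjusted p = 0.0427).

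**Figure D2:**
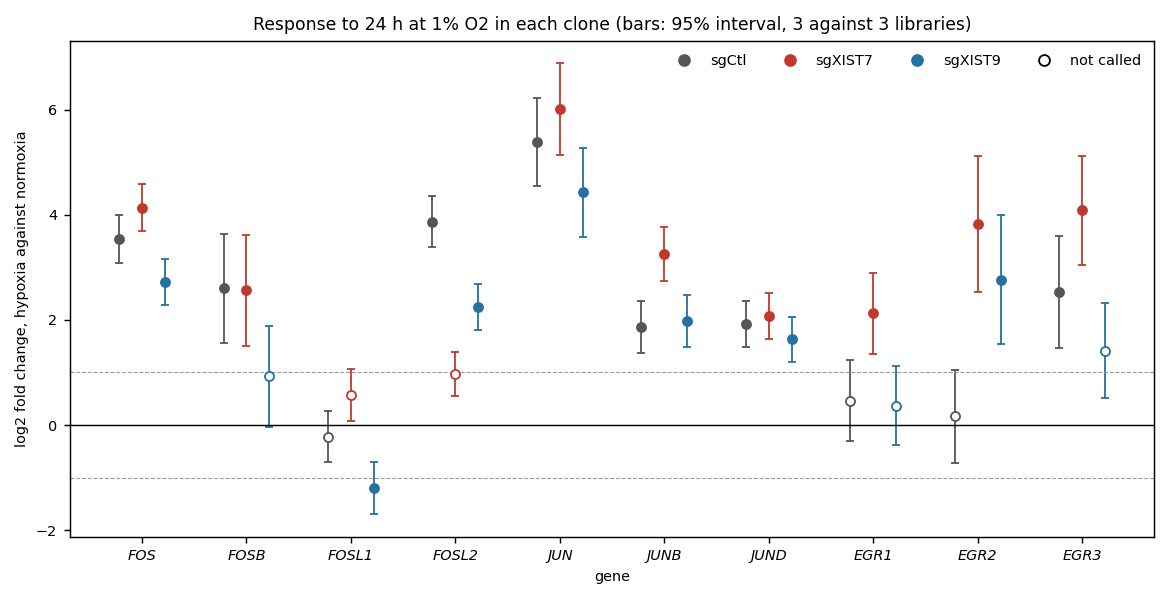
Log2 fold change of hypoxia against normoxia (vertical axis) for each factor in the 3 lines, with 95% intervals of the edgeR fit on 3 against 3 libraries, filled points for called genes and dashed lines at a fold of 2. JUN was highest in each line, FOSL2 ran from 3.87 in sgCtl to 0.97 in sgXIST7, and FOSL1 was called lower in sgXIST9.

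The EGR genes changed less evenly, and none was called in all 3 lines. EGR1, a zinc finger factor that responds to serum and to many stresses, was 12.3, 13.6 and 11.4 CPM in normoxia and 19.3, 18.8 and 13.0 in hypoxia in sgCtl, which overlapped. In sgXIST7 it rose 4.37-fold (log2 2.13 ± 0.37, SE, adjusted p = 9.52e-05), from 9.21, 14.2 and 11.4 CPM to 29.8, 69.3 and 52.7, with no overlap. In sgXIST9 14.7, 22.8 and 16.2 CPM stood against 17.9, 11.9 and 39.8, where replicate 3 alone exceeded all normoxia libraries. The log2 difference of EGR1 there was 0.36 (adjusted p = 0.402) and turned to -0.26 (0.490) without that library.

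EGR3, which is induced together with EGR1 in many cells, rose 5.78-fold in sgCtl (adjusted p = 4.92e-04) and 17.02-fold in sgXIST7 (2.13e-06). The levels in sgCtl were 0.738, 1.31 and 1.32 CPM in normoxia and 6.13, 9.48 and 3.72 in hypoxia. In sgXIST7 they were 0.908, 1.499 and 0.959 against 9.36, 23.9 and 23.8 CPM. The sgXIST9 libraries began higher, at 4.02, 5.05 and 4.61 CPM, and held 7.84, 7.35 and 21.5 in hypoxia without overlap. Their log2 difference of 1.42 had an adjusted p of 0.01003 just outside the threshold, and was called by DESeq2 (1.40, 0.00370). Without replicate 3 of sgXIST9 in hypoxia it was 0.74 (0.110).

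EGR2, a factor best known from Schwann cells and lymphocytes, was low throughout and almost silent in the KD lines in normoxia. It had 49, 48 and 66 counts in sgCtl in normoxia and 63, 105 and 32 in hypoxia, 3.29 to 3.79 CPM against 2.84 to 5.21, which overlapped. In sgXIST7 it had 2, 3 and 3 counts in normoxia and 22, 39 and 34 in hypoxia, and in sgXIST9 1, 4 and 7 against 20, 22 and 41. The hypoxia libraries of both KD lines lay above their normoxia libraries and, except for replicate 3 of sgXIST7, below those of sgCtl. The ratio of summed counts per library size was 13.9 (95% interval 6.80 to 33.2, counting error only) in sgXIST7 and 6.75 (3.66 to 13.6) in sgXIST9. The edgeR log2 fold changes were 3.82 ± 0.61 (adjusted p = 4.63e-05) and 2.76 ± 0.58 (7.00e-04).

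Divided by gene length (RPKM), the summed JUN family was 58.3 ± 4.4 in sgCtl in normoxia and 284 ± 58 in hypoxia (SD, n = 3), against 38.3 ± 5.8 and 299 ± 64 in sgXIST7 and 45.3 ± 2.5 and 172 ± 51 in sgXIST9. The FOS family total was 29.7 ± 2.9 and 58.0 ± 4.8 in sgCtl, 29.5 ± 3.1 and 70.2 ± 13.6 in sgXIST7, and 25.3 ± 2.5 and 31.5 ± 4.7 in sgXIST9. EGR totals were lower, from 3.98 ± 0.87 in sgXIST7 in normoxia to 20.8 ± 8.2 in the same line in hypoxia. On this scale JUND and JUNB made up most of the JUN mRNA before and after hypoxia in every group.

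The make-up of the FOS family differed more between groups than its total. FOSL1 gave 90.1 ± 2.3% of it in sgCtl in normoxia and 80.3 ± 1.1% in sgXIST9, but 34.4 ± 1.7% in sgXIST7, where FOSL2 gave 61.1 ± 1.5%. In hypoxia FOSL1 gave 39.7 ± 6.1% in sgCtl, 21.2 ± 3.3% in sgXIST7 and 27.7 ± 4.9% in sgXIST9, while FOS went from between 3.20% and 4.01% to between 18.7% and 25.8%. In the JUN family JUN held 2.90 ± 0.34% in normoxia and 25.4 ± 1.8% in hypoxia in sgCtl, 2.37 ± 0.42% and 18.7 ± 5.5% in sgXIST7, and 1.74 ± 0.59% and 9.49 ± 1.78% in sgXIST9. EGR1 held 61.8% to 93.6% of the EGR total in each library, and EGR2 21.4 ± 1.8% in sgCtl but 1.01 ± 0.12% and 1.04 ± 0.93% in sgXIST7 and sgXIST9 in normoxia. The shares of FOS, FOSL1, FOSL2 and JUN in hypoxia did not overlap those in normoxia in any line. That of FOSL2 rose from 4.94% to 36.4% in sgCtl and from 11.9% to 44.9% in sgXIST9, but fell from 61.1% to 50.6% in sgXIST7. In neither KD line did the normoxia shares of FOSL1, FOSL2 and EGR2 overlap those of sgCtl. Each of these differences had an exact permutation p of 0.1 (two-sided), the smallest that 3 against 3 libraries allow. The shares of FOSL1 in hypoxia overlapped between the KD lines (p = 0.2, exact), and those of JUN in hypoxia between sgXIST7 and sgCtl (p = 0.2, exact). The shares depend on the division by length, since the listed length of FOSL2 is 6713 bases and that of FOSL1 is 1838.

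**Figure D3:**
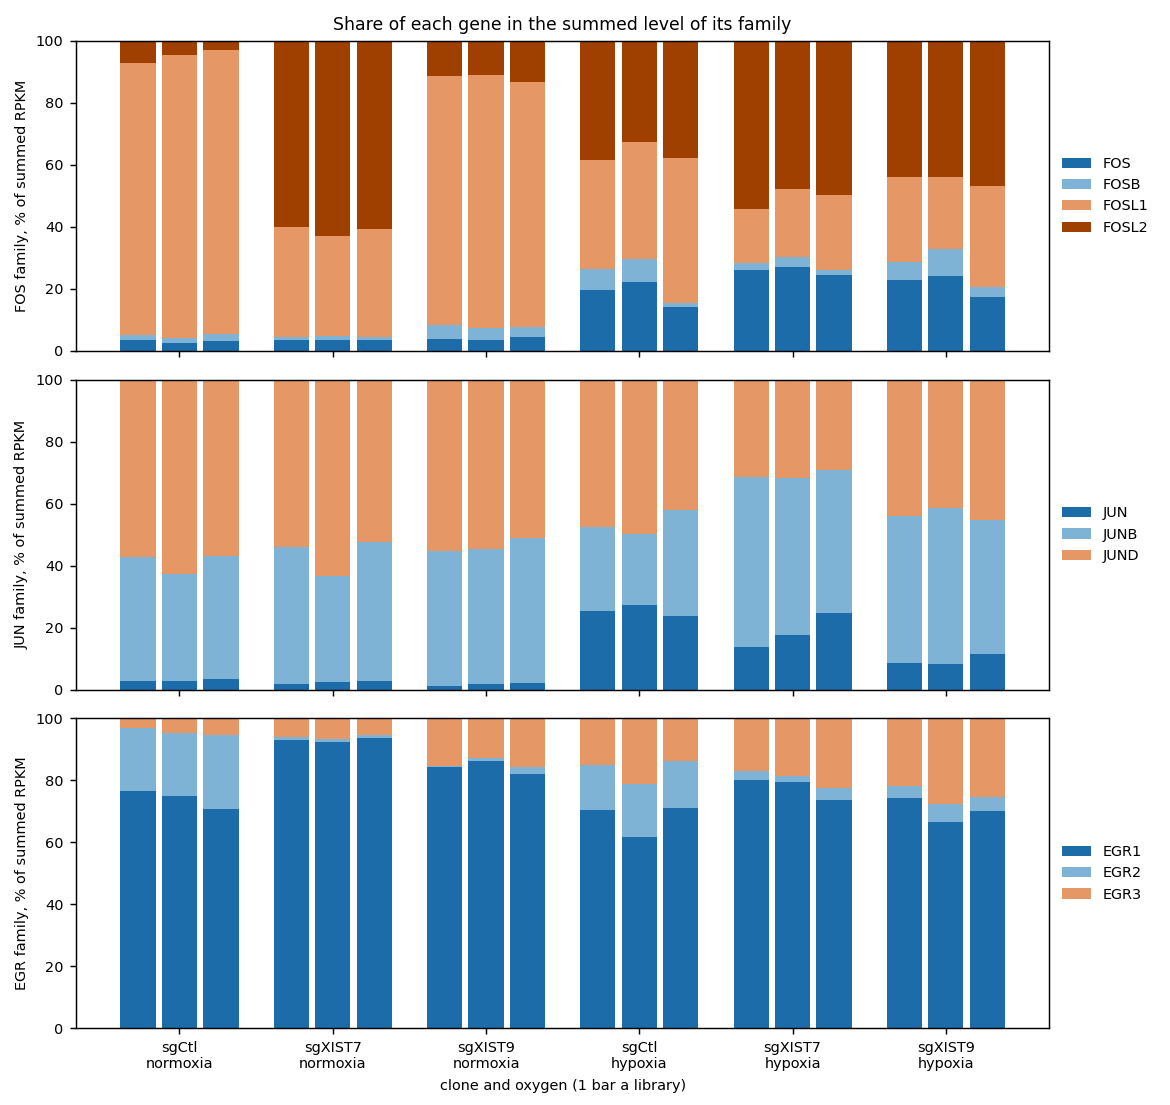
Share of each gene in the summed RPKM of its family (vertical axis, percent), 1 bar for each of the 18 libraries. FOSL1 fills most of the FOS family in sgCtl and sgXIST9 in normoxia and FOSL2 most of it in sgXIST7, and JUN is a visible share of its family in hypoxia only.

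In normoxia 3 of 10 factors were called between sgXIST7 and sgCtl, 1 higher and 2 lower, where 7.76% of all genes were called (4.67% higher, 3.09% lower). Between sgXIST9 and sgCtl 3 were called, 2 higher and 1 lower, where the background was 7.7% (3.93% higher, 3.77% lower). FOSL2 was 12.5-fold higher in sgXIST7 (log2 3.65 ± 0.23, SE, adjusted p = 4.20e-09), with all 3 libraries at 110 CPM or above and none over 13.2 in sgCtl. It was 2.09-fold higher in sgXIST9 (1.07 ± 0.22, adjusted p = 0.00153), again without overlap. That smaller difference rested on replicate 3 of sgCtl, the lowest at 5.68 CPM: without it the log2 difference was 0.78 (0.00515) and was not called, and in a fit of these groups alone it was 1.08 with an adjusted p of 0.0273.

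EGR2 was lower in both KD lines, with 8 counts in all in sgXIST7 and 12 in sgXIST9 against 163 in sgCtl. The ratio was 28.9-fold lower (95% interval 14.3 to 68.0, counting error only) in sgXIST7 and 17.5-fold lower (9.76 to 34.6) in sgXIST9, and the edgeR adjusted p-values were 1.37e-05 and 3.93e-05. FOSL1 fell by 1.40 on the log2 scale in sgXIST7 (SE 0.23, adjusted p = 2.56e-04). EGR3 was 4.03-fold higher in sgXIST9 (adjusted p = 0.00779), 4.02 to 5.05 CPM against 0.738 to 1.32, but the adjusted p was 0.0157 to 0.0429 when any library of either group was left out, with log2 differences of 1.78 to 2.16. JUN was lower without overlap in both KD lines, by log2 values of -0.94 in sgXIST7 and -1.13 in sgXIST9, neither of which was called (adjusted p = 0.113 and 0.0635). The groups did not overlap for 45.5% of all genes tested in sgXIST7 against sgCtl and 53.9% in sgXIST9 against sgCtl. In a fit of sgXIST9 and sgCtl in normoxia alone JUN was called (-1.11, adjusted p = 0.00427). COL1A2 rose and the epithelial gene KRT8 rose in the same comparisons, by 8.37 and 1.92 in sgXIST7 and by 7.39 and 1.89 in sgXIST9 (log2). Of the 10 fibroblast, endothelial and immune genes 5 were tested and 2 were higher in each KD line, and of 9 epithelial genes 4 were tested and 1 was higher. The part of these genes in the results on the factors was not tested.

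Between the KD lines in normoxia FOSL2 was the 1 factor called (background 3.4%, 2.09% higher), 5.99-fold higher in sgXIST7 (adjusted p = 2.27e-07). FOSL1, FOSB and EGR3 were nearer to the thresholds. FOSL1 had a log2 difference of -0.9999 at the fold limit (adjusted p = 0.00938), FOSB of -1.70 (0.0439) and EGR3 of -2.03 (0.0118), and all 3 passed under DESeq2. Without replicate 3 of each hypoxia group 4 factors were called, 1 higher and 3 lower in sgXIST7 (background 4.61%).

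In hypoxia EGR1 and EGR3 were higher in sgXIST7 than in sgCtl, while JUN and FOSL1 were lower in sgXIST9. Of the 10 factors 2 were called higher in sgXIST7 (background 14%, 7.83% higher and 6.19% lower) and 2 were called lower in sgXIST9 (background 9.53%, 6.14% higher and 3.39% lower). In sgXIST7 EGR1 was 2.96-fold higher (log2 1.57 ± 0.36, SE, adjusted p = 0.00242) and EGR3 2.90-fold higher (1.54 ± 0.42, 0.00812), the groups of EGR1 not overlapping. Both lost the call without replicate 3 of sgCtl, which was the lowest control library (1.41, adjusted p = 0.0109, and 1.27, 0.0267), and without replicate 2 of sgXIST7 (1.26, 0.0181, and 1.33, 0.0392). EGR3 also lost it without replicate 1 of sgCtl (1.49, 0.0326) or replicate 3 of sgXIST7 (1.35, 0.0346). FOS, FOSL2 and JUNB were higher in sgXIST7 at adjusted p-values of 0.00445, 0.00614 and 0.00524 but under the fold limit, with log2 differences of 0.72, 0.75 and 0.88, and JUNB reached 1.26 (3.91e-05) without replicate 3 of sgCtl. FOSB went the other way, from -0.83 (0.138) to -1.27 (0.00347) without that library, which put it among the calls. EGR2 had -1.11 (0.0503) and was called lower without replicate 3 of each hypoxia group (-1.69, 0.00114). COL1A2 and KRT8 were again higher, by 9.76 and 2.56 in sgXIST7 and by 7.70 and 2.14 in sgXIST9 (log2), and 2 of the 5 tested fibroblast, endothelial and immune genes were higher and 1 lower in each KD line. Their part in the hypoxia results was not tested.

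In sgXIST9 in hypoxia JUN fell by 2.09 on the log2 scale against sgCtl (SE 0.33, adjusted p = 1.37e-04) and FOSL1 by 1.38 (0.23, 2.65e-04). Neither gene overlapped between the groups, which held for 33.7% of all genes tested. In a fit of these 2 groups alone FOSL1 was not called (-1.37, adjusted p = 0.0115). EGR2 was lower by a log2 value of -1.46 (adjusted p = 0.0196) and was called with the replicate number as a block (-1.58, 0.00513). It reached -2.07 (0.00267) without replicate 3 of sgXIST9 and -1.65 (0.00832) without that of sgCtl. JUND had -0.80 (0.00615), under the fold limit, and -1.11 (2.18e-04) without replicate 3 of sgXIST9, and FOSB went from -0.77 (0.207) to -1.20 (0.00665) without replicate 3 of sgCtl. Replicate 3 of sgXIST9 in hypoxia had the highest FOSL1, FOSL2, JUN, JUNB, JUND, EGR1, EGR2 and EGR3 of its group, and the lowest FOS and FOSB. It also had the highest summed level of 8 hypoxia-induced genes, 1925 CPM against 1068 and 1297. In the other hypoxia groups replicate 3 again had the highest sum, 2154 CPM against 1691 and 1611 in sgCtl and 2388 against 1665 and 2081 in sgXIST7. The part of that in these results was not tested.

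Between the KD lines in hypoxia 3 of 10 factors were called, all higher in sgXIST7 (background 4.46%, 2.06% higher). FOS was 2.72-fold higher (adjusted p = 3.63e-05), FOSL2 2.48-fold (2.32e-04) and JUN 3.42-fold (0.00125). No library of these 3 genes overlapped, which held for 29.7% of all genes tested. JUN lost the call without replicate 1 or 2 of sgXIST9, the lowest libraries (1.6, adjusted p = 0.0110, and 1.57, 0.0103). In a fit of these 2 groups alone it was 1.79 (0.0424). Without replicate 3 of sgXIST9 or replicate 1 of sgXIST7, 6 factors were called (background 6.36% and 5.78%). Without the former the added ones were JUNB (1.10, adjusted p = 0.00422), EGR1 (1.77, 8.68e-04) and FOSL1 (1.05, 0.00411). COL1A2 was also higher in sgXIST7 here, by 2.06.

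The interaction terms asked whether the response to hypoxia itself differed between lines. For sgXIST7 against sgCtl 2 of 10 factors were called (background 1.52%, 0.904% with a larger and 0.616% with a smaller response), for sgXIST9 against sgCtl 1 (background 1.01%, 0.348% smaller), and between the KD lines 0 (background 0.167%). FOSL2 responded less in sgXIST7, by a log2 difference of -2.90 ± 0.29 (SE, adjusted p = 4.16e-05), and less in sgXIST9, by -1.63 ± 0.29 (0.00496). In both lines the normoxia level was above that of sgCtl, and the mean of hypoxia libraries was 236 CPM in sgXIST7, 141 in sgCtl and 95.4 in sgXIST9. The call in sgXIST9 did not hold without replicate 2 of sgCtl in normoxia, without replicate 1 or 2 of sgCtl or sgXIST9 in hypoxia, or without any normoxia library of sgXIST9 (log2 -1.55 to -1.70, adjusted p = 0.0111 to 0.0172), nor in a fit of these groups alone (0.0173). Without replicate 3 of each hypoxia group 3 other factors joined it with a smaller response in sgXIST9, FOSB (-1.89, adjusted p = 0.00584), FOSL1 (-1.17, 0.00663) and EGR3 (-2.05, 0.00967), against -1.67 (0.152), -0.98 (0.0860) and -1.11 (0.351) with all libraries. Leaving those libraries out raised the share of all genes called from 1.01% to 5.38%. Without replicate 3 of all groups only 1 factor was called, with a smaller response (background 3.16%).

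EGR2 responded more in sgXIST7 than in sgCtl, by 3.66 ± 0.76 (SE, adjusted p = 0.00874), from its normoxia level of 8 counts in 3 libraries. The log2 difference stayed between 3.27 and 3.90 with adjusted p-values of 0.0139 to 0.0310 when any library but replicate 3 of sgCtl or replicate 1 of sgXIST7 in hypoxia was left out, and it was then not called. JUNB had a difference of 1.38 (adjusted p = 0.0156) in sgXIST7, which was called without replicate 3 of sgCtl in hypoxia (1.77, 1.84e-04) and by DESeq2 (1.38, 0.00127). Between the KD lines the 0 calls of edgeR stood against 5 of DESeq2, which called 1.04% of all genes. These 5 were FOS (1.46, adjusted p = 0.00129), FOSL1 (1.82, 4.60e-05), JUNB (1.33, 0.00591) and EGR3 (2.71, 0.00206), which responded more in sgXIST7, and FOSL2 (-1.22, 0.00309). At an unadjusted p under 0.05 edgeR held 8 of the 10, where it held 16.1% of all genes. Without replicate 3 of each hypoxia group edgeR called FOS (1.33, adjusted p = 0.00505), FOSL1 (1.86, 0.00124), JUNB (1.43, 0.00119), EGR1 (2.37, 0.00810) and EGR3 (3.17, 0.00134), with 1.89% of all genes called. These calls did not hold without replicate 3 of all groups. There 0 factors were called with a larger response in sgXIST7 and 1 with a smaller response (background 0.385%).

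For the lists of related genes, the background in hypoxia was 11.3% higher and 8.49% lower in sgCtl, 15.1% and 12.2% in sgXIST7, and 14.7% and 8.58% in sgXIST9. Of 26 other immediate early genes, 18 rose in sgCtl, 15 in sgXIST7 and 10 in sgXIST9 in hypoxia, with medians of 1.80, 1.31 and 0.82 (log2). The nuclear receptor genes NR4A3 and NR4A1 rose by 5.86 and 5.40 in sgCtl, 6.11 and 3.995 in sgXIST7, and 4.96 and 3.57 in sgXIST9. KLF2, a zinc finger factor, rose by 4.01, 4.21 and 3.22, and RHOB, a small GTPase, by 3.99, 3.78 and 3.11. Against sgCtl in hypoxia 10 of the 26 were lower in sgXIST9, where 3.39% of all genes were, and 5 in sgXIST7, where 6.19% were. CCN1, a matrix protein gene of the immediate early class, fell by 3.39 in sgXIST9 and by 1.28 in sgXIST7, and SGK1, a serum-induced kinase, fell by 2.57 in sgXIST9 and fell by 2.796 in sgXIST7. The sum over the 26 genes was 1698 to 2265 CPM in sgCtl in hypoxia, 1488 to 1832 in sgXIST7 and 1184 to 1272 in sgXIST9.

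Of the 12 partners and relatives of AP-1, 10 were tested, and 6 rose in sgCtl, 5 in sgXIST7 and 5 in sgXIST9 in hypoxia. MAFF, a small MAF protein without an activation domain, rose by 2.39, 2.71 and 1.88 (log2), and JDP2, a repressor that dimerizes with JUN, by 2.06, 1.26 and 2.72. JDP2 was lower in sgXIST9 than in sgCtl in normoxia, by -2.09, and its response was smaller in sgXIST7 than in sgXIST9, by -1.47 (adjusted p = 0.00604).

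Of 18 upstream kinases and factors 2 were called higher and 1 lower in sgCtl, 2 and 1 in sgXIST7, and 1 and 0 in sgXIST9, where 19.7%, 27.3% and 23.3% of all genes were called, and their medians were 0.07, 0.04 and 0.01. MAPK7, the kinase ERK5, rose by 2.35, 2.63 and 2.10. SRF, the factor that binds CArG boxes, rose by 1.01 in sgCtl, and ELK3, one of its partners, fell by 1.14 there. MAP2K1, an activator of ERK, rose by 1.69 and MAPK9, a JUN kinase, fell by 1.37 in sgXIST7.

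Of 4 EGR relatives and corepressors 3 were tested and 2 rose in each line. NAB2, the corepressor that EGR factors induce, rose by 1.40 in sgCtl, 2.09 in sgXIST7 and 1.59 in sgXIST9 (adjusted p = 1.20e-08, 1.52e-10 and 2.46e-09).

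Among genes known to respond to AP-1, 21 of 26 were tested, with 8 higher and 0 lower in sgCtl, 9 and 1 in sgXIST7, and 8 and 1 in sgXIST9 in hypoxia. HBEGF, a ligand of the EGF receptor, rose by 2.82 in sgCtl, 1.77 in sgXIST7 and 1.89 in sgXIST9. IL11, a cytokine of the IL-6 family, rose by 2.19, 2.27 and 3.5005. Of 12 EGR responsive genes 11 were tested, with 4 higher and 2 lower in sgCtl and 5 and 1 in each KD line. ADAMTS1, a secreted protease, rose by 1.93, 1.15 and 1.42, while TOE1, known as a target of EGR1, fell by 1.34, 1.14 and 1.22.

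Between the lines, AP-1 responsive genes differed in both directions. In normoxia 3 AP-1 responsive genes were higher and 2 lower in sgXIST7 than in sgCtl, and 2 higher and 3 lower in sgXIST9, of 21 tested (background 4.67% and 3.09%, then 3.93% and 3.77%). DUSP4, a phosphatase of ERK and JNK, was higher by 3.42 and 4.03, LIF, a cytokine, fell by 1.22 and 1.10, and ITGA2, an integrin chain, fell by 4.57 in sgXIST9. In hypoxia 6 were higher and 5 lower in sgXIST7 (background 7.83% and 6.19%), and 3 and 5 in sgXIST9 (background 6.14% and 3.39%). TIMP1, an inhibitor of metalloproteinases, was higher by 2.07 in sgXIST7. As a check of the treatment, 6 of 8 hypoxia-induced genes rose in sgCtl, 7 in sgXIST7 and 7 in sgXIST9, and NDRG1 rose by 5.17, 5.09 and 6.35.

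**Figure D4:**
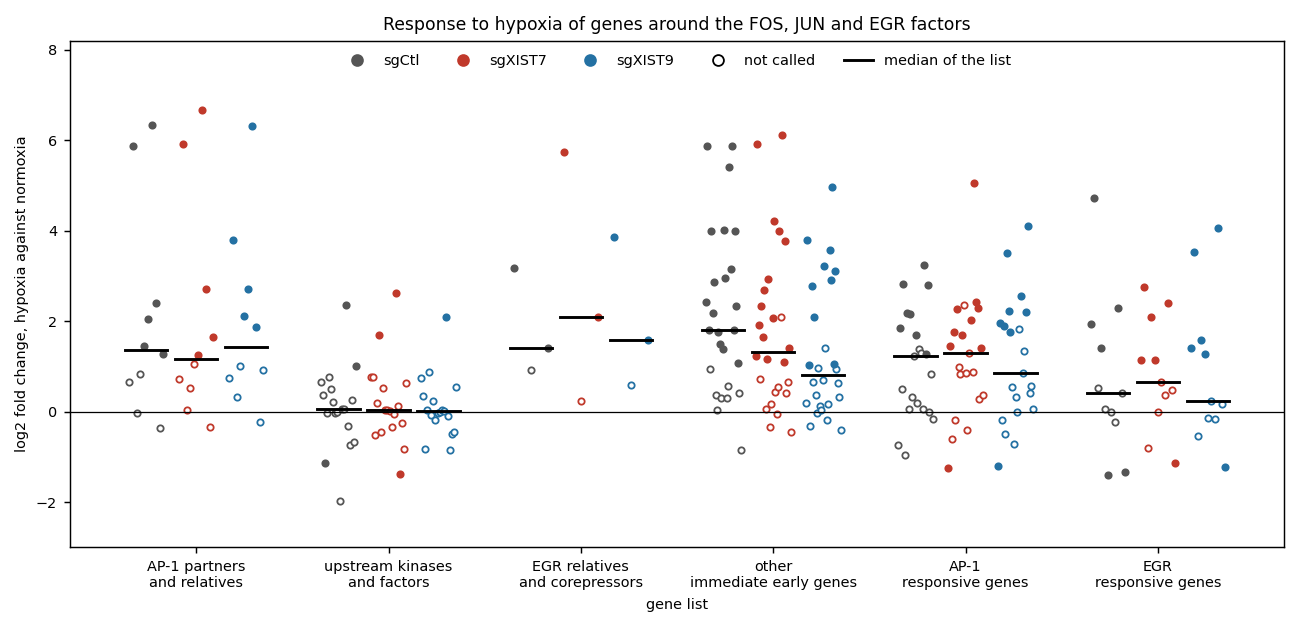
Log2 fold change of hypoxia against normoxia (vertical axis) of each tested gene in 6 lists around the factors, in the 3 lines, with filled points for called genes and bars at the median of each list. Other immediate early genes had medians of 1.80, 1.31 and 0.82 in sgCtl, sgXIST7 and sgXIST9, and the upstream kinases and factors medians near 0.

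The 3 factors whose group means spanned the widest range were JUN (6.49 on the log2 scale), FOSL2 (4.67) and FOS (4.18). For each, the 3 most similar of 10703 other genes were found by the root mean square difference of centred log2 CPM over 18 libraries. FOXD1 (0.55), NR4A3 (0.57) and BNIP3L (0.75) were nearest to JUN, MAP3K8 (0.55), SCD (0.58) and TXNIP (0.67) to FOSL2, and AK4 (0.28), SLC2A1 (0.29) and APOLD1 (0.33) to FOS. AK4 and SLC2A1, a mitochondrial kinase and the glucose transporter GLUT1, are well-known hypoxia-induced genes, and SCD encodes the stearoyl-CoA desaturase. AK4 averaged 17.6, 20.1 and 18.6 CPM in sgCtl, sgXIST7 and sgXIST9 in normoxia and 172, 237 and 121 in hypoxia, the same order of groups as FOS in hypoxia. SCD averaged 52.1, 465 and 187 CPM in normoxia and 750, 1993 and 1023 in hypoxia, with the high normoxia level in sgXIST7 that FOSL2 had. Both genes were chosen for likeness over these same libraries. The shared patterns follow from that choice and are not separate evidence.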

How the data were processed

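The authors made stranded, ribosomal RNA-depleted libraries, sequenced them from both ends, and used Trimmomatic for trimming, hisat2 for alignment to hg38 and featureCounts for counting, with versions and strand setting not given in the sources used here. The deposited values are whole-number counts per gene and library, without normalization. The authors also deposited gene coordinates and the summed exon length, used here for RPKM.

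Of 28279 lines, 2 broken ones with 0 counts were left out. The counts were fitted with edgeR 4.0.16 (R 4.3.3), TMM factors (0.859 to 1.115), filterByExpr with a minimum count of 10 and total of 15, and a quasi-likelihood model of 6 groups. Calls needed an adjusted p under 0.01 and a log2 fold change beyond 1 in either direction, after the thresholds of the study. CPM were divided by TMM-scaled library sizes. The members and gene lists were chosen with earlier results of these data known. The text names all members, XIST, at most 4 called genes of each list by size of change (mean count of at least 100), and the 3 genes nearest to each of 3 members. The values of 1 gene that this rule selects are not reported here. No member shared exon bases with another listed gene. On simulated counts edgeR called 86.5% of 200 changed genes for hypoxia in sgCtl and 73% for the interaction. The changes put in all exceeded the fold limit, in genes above 1 CPM, and the libraries were drawn independently. These rates therefore do not cover smaller changes, genes of lower level or deviations shared by replicates. DESeq2 1.42.0, other scalings and filters, a fit of only the groups compared, a replicate block and left-out libraries were the alternatives. Same-numbered libraries deviated together (each of 3 correlations over 0.1) only for sgXIST7 against sgCtl in normoxia (0.148 to 0.379) and sgXIST9 against sgCtl in hypoxia (0.197 to 0.566). Intervals on counts are exact conditional 95% intervals.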

Additional observations from a re-analysis of the deposited data

Results flagged for a closer look

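The response to hypoxia of 2 factors differed between a KD line and sgCtl by the interaction test of edgeR. For FOSL2 the log2 difference was -2.90 in sgXIST7 and -1.63 in sgXIST9, and for EGR2 it was 3.66 in sgXIST7. FOSL2 in sgXIST7 kept its call in every alternative run. In sgXIST9 it did not without any of 8 libraries taken singly, and EGR2 did not without any of 10. Groups of 3 libraries were too small for a test of single outlying libraries.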

How the results depend on the processing

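The counts of factors called in hypoxia against normoxia stayed within 1.5 times under every alternative run, at 7 in sgCtl, 8 to 9 in sgXIST7 and 7 to 8 in sgXIST9 when 1 library was left out. The counts between lines were less stable. Percentages here and in the next paragraph are the share of all genes called in the same run. For sgXIST7 against sgXIST9 in normoxia 1 factor was called (3.4%), against 4 with DESeq2 (4.06%), 2 with median-of-ratios scaling (3.4%) and 2 without the filter (2.22%). It was 3 in a fit of only the groups compared (4.21%), 3 with the replicate block (3.76%) and 3 at an adjusted p under 0.05 (4.71%). With no minimum fold it was 2 (4.97%), and without replicate 3 of each hypoxia group 4 (4.61%). For sgXIST7 against sgCtl in hypoxia 2 (14%) became 1 without the filter (8.95%) and 1 in the fit of only those groups (7.92%). With no minimum fold 5 were called (27.6%) and without replicate 3 of each hypoxia group 4 (17.9%). When 1 library was left out 0 to 2 were called (10.3% to 19.7%). For sgXIST9 against sgCtl in hypoxia 2 (9.53%) became 1 in the fit of only those groups (4.5%) and 4 with no minimum fold (17.9%). It was 4 without replicate 3 of each hypoxia group (11.9%) or of all groups (11.1%). When 1 library was left out it was 2 to 4 (13.1% for the 4 without replicate 3 of sgCtl). For sgXIST7 against sgXIST9 in hypoxia 3 (4.46%) became 5 without replicate 3 of each hypoxia group (6.34%). With 1 library left out it was 2 to 6 (5.78% for the 6 without replicate 1 of sgXIST7). For sgXIST9 against sgCtl in normoxia 3 (7.7%) became 1 to 2 with 1 library left out (6.38% for the 1 without replicate 3 of sgCtl).

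The interaction of sgXIST7 with sgCtl went from 2 factors (1.52%) to 4 at an adjusted p under 0.05 (4.73%). With 1 library left out it was 1 to 3 (0.554% to 7.83%). That of sgXIST9 went from 1 (1.01%) to 0 in the fit of only those groups (0.617%) and 2 at an adjusted p under 0.05 (3.13%). It was 4 without replicate 3 of each hypoxia group (5.38%), 1 without replicate 3 of all groups (3.16%) and 0 to 2 with 1 library left out. That between the KD lines went from 0 (0.167%) to 5 with DESeq2 (1.04%), 1 with the replicate block (0.375%) and 4 at an adjusted p under 0.05 (0.87%). It was 5 without replicate 3 of each hypoxia group (1.89%), all with a larger response in sgXIST7. It was 1 without replicate 3 of all groups (0.385%), with a smaller response, and 0 to 3 with 1 library left out. The cause of these shifts was not tested. The block also called EGR3 in hypoxia against normoxia in sgXIST9 (1.36, adjusted p = 0.00603) and JUN in sgXIST9 against sgCtl in normoxia (-1.12, 0.00710). It changed no other count by over 1.5 times. In the comparisons other than the 2 named with the processing, the lowest of 3 same-numbered correlations lay between -0.068 and 0.093. Single pairs there were higher. Replicate 3 in hypoxia had 0.380 between sgCtl and sgXIST7 and 0.492 between the KD lines, beside 0.566 between sgCtl and sgXIST9.

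Of 27 uncalled differences under 0.5 (log2), 14 changed sign in some alternative and 0 were called. Direction reversed for 2 larger uncalled differences. EGR3 in sgXIST9 against sgCtl in hypoxia went from 0.90 to -0.046 without replicate 3 of each hypoxia group and -0.046 without that of all groups. EGR2 in sgXIST7 against sgXIST9 in normoxia, with 8 and 12 counts, went from -0.71 to 0.00054 without replicate 3 of all groups, and lay between -1.25 and 0.030 with 1 library left out. Upper-quartile scaling moved the median of all genes to 0.17 for hypoxia in sgXIST9.

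Without division by length the share of FOSL1 became 78.3%, 13.0% and 59.0% in sgCtl, sgXIST7 and sgXIST9 in normoxia and 19.5%, 8.84% and 12.1% in hypoxia. That of JUN became 4.90%, 4.01% and 2.97% and then 36.9%, 28.4% and 15.4%. That of EGR1 became 90.3% in sgXIST7 and 78.6% in sgXIST9 in normoxia and 71.1% and 62.7% in hypoxia. The 3 nearest genes of JUN, FOSL2 and FOS were the same on the scale of DESeq2. At 8 to 12 counts in 3 libraries, depth limits what can be said of EGR2 in the KD lines in normoxia.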
